A study of Mus musculus with 7 samples.

Results

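Polycomb repressive complex 2 (PRC2) is the enzyme complex that methylates lysine 27 of histone H3, a mark of silenced developmental genes. Ezh2 or its paralog Ezh1 carries the catalytic site, and Eed and Suz12 are the partners without which neither is active. Rbbp4 and Rbbp7 are WD40 proteins that bind histones and nucleosomes, and Mtf2, Phf19, Jarid2 and Aebp2 are accessory subunits that steer the complex to chromatin. In the developing cortex PRC2 holds neural progenitors to their timetable of neuron and glia production. The 10 genes that encode these subunits were taken by name from the 21887 protein-coding genes with a position on GRCm38. Their loci were then read in 7 ATAC-seq libraries, an assay in which a transposase cuts open DNA.

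The cells carried the surface antigen CD15 and were sorted as neural progenitors out of dorsal telencephalon; the mice were of strain CD-1 and the titles give E14.5, the age field embryonic day 14. The 4 knockout libraries are L3mbtl3 -/- and the other 3 are wild-type, and no other allele or treatment is given for either genotype. L3mbtl3 encodes a methyl-lysine reader that the study title links to PRC1, the other Polycomb complex. The labels do not say whether each library came from its own embryo, so p-values measure only the spread between these libraries. They also give neither the sex of the embryos nor the deleted stretch, and their growth protocol mentions heterozygous cells, although no library is labelled so.

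The authors deposited a list of broad peaks per library, called separately in each, with a fold enrichment and a −log10 q per peak that are the authors' own values; a larger −log10 q is a stronger peak. The knockout lists held 9827, 7111, 3366 and 17362 peaks and the wild-type lists 7448, 11394 and 6458. The read depth behind them is unknown, and a gene without a peak is only a gene at which no peak was called. Of 12 progenitor markers, 11 had a peak in their locus in at least 1 library and Hes1 had none, against 69.2% of all genes. Locus peaks were also found for 5 of 5 excitatory neuron, 3 of 5 interneuron and 2 of 3 meningeal markers. They were found for 2 of 3 microglial, 3 of 3 endothelial and 0 of 2 oligodendrocyte markers. All those of the endothelial markers came from knockout library 4, the longest list. Within 1 kb of a gene end, 5 of the 12 progenitor markers had a peak in at least 1 library, against 23.6% of all genes. By library these were 2, 1, 1 and 2 markers in knockout libraries, against 0, 2 and 0 in wild-type libraries. An end peak in at least 1 library was found for 2 of 5 excitatory neuron, 1 of 5 interneuron and 1 of 3 meningeal markers. It was found for 0 of 3 microglial, 0 of 3 endothelial and 0 of 2 oligodendrocyte markers. L3mbtl3 itself had no end peak in any library and 0, 0, 0 and 1 locus peaks in knockout libraries, against 1, 0 and 0 in wild-type libraries, which does not check the genotype.

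The 6 windows shown come from 5 genes and carry the peaks described next, so their sequences are shown. Each runs from 250 bases before to 30 bases from the transcription start onward, on the strand of the gene (RefSeq, GRCm38.p6). Capitals mark the bases under the called peak, which for Rbbp7 are the bases shared by the peaks of all 3 wild-type libraries.
Ezh2, chr6:47595001-47595280, minus strand: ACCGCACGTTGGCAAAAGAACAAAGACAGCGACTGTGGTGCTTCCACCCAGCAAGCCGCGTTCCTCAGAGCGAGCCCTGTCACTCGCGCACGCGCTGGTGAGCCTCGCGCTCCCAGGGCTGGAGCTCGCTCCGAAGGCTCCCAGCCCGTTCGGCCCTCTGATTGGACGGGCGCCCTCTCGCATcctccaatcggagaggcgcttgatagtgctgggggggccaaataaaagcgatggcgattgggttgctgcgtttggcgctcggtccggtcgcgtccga
Jarid2, first start, chr13:44730524-44730803, plus strand: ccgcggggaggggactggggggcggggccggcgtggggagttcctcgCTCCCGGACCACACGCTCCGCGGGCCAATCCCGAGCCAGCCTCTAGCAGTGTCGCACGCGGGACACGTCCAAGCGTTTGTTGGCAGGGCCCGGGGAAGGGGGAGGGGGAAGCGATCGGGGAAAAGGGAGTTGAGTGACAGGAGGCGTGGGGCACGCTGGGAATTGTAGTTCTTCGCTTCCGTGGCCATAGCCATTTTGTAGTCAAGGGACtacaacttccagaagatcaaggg
Jarid2, second start, chr13:44731021-44731300, plus strand: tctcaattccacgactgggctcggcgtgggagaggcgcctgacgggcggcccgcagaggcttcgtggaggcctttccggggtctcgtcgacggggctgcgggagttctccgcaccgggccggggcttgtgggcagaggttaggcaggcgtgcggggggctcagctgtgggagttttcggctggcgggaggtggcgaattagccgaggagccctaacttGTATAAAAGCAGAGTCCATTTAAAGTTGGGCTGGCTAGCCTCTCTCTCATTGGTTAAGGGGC
Mtf2, chr5:108065424-108065703, plus strand: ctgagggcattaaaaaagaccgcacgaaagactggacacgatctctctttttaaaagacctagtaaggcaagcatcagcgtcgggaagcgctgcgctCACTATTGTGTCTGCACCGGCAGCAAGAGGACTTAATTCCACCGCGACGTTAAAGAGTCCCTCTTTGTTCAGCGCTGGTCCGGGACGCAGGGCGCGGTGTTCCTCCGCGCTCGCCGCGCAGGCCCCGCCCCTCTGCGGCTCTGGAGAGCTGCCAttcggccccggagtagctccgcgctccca
Rbbp4, chr4:129335341-129335620, minus strand: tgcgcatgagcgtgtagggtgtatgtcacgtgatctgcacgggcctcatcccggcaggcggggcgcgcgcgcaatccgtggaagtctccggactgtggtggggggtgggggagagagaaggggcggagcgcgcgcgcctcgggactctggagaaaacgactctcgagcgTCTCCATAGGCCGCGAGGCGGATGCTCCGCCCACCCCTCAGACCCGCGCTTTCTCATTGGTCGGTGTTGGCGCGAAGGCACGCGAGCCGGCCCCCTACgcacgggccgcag
Rbbp7, chrX:162760122-162760401, plus strand: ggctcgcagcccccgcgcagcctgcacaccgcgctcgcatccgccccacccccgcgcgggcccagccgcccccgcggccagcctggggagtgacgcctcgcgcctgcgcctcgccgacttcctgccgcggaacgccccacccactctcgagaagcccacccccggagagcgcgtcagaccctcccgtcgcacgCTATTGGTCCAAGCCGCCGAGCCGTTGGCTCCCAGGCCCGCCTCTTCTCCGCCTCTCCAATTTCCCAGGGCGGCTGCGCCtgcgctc

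Every peak at an end of a PRC2 gene lay at the start of the gene. A gene was called at an end where a peak came within 1 kb of either limit of its RefSeq span. Of the 10 genes, 5 (50%) had such a peak in at least 1 library, against 23.6% of all protein-coding genes. Only Rbbp7 had one in 2 or more libraries, against 13.8% of all genes. The number of PRC2 genes called at an end was 0, 0, 0 and 2 in knockout libraries 1 to 4, against 2, 2 and 1 in wild-type libraries 1 to 3. The means were 0.50 ± 1 genes in knockout and 1.67 ± 0.577 in wild-type libraries (SD, n = 4 and 3), and the ranges overlapped because knockout library 4 reached 2. As shares of the 10 genes the means were 5% ± 10 in knockout and 16.7% ± 5.77 in wild-type libraries (SD, n = 4 and 3). Over all genes the share called at an end was 9.11% ± 6.30 in knockout and 8.39% ± 2.41 in wild-type libraries (SD, n = 4 and 3).

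**Figure D1:**
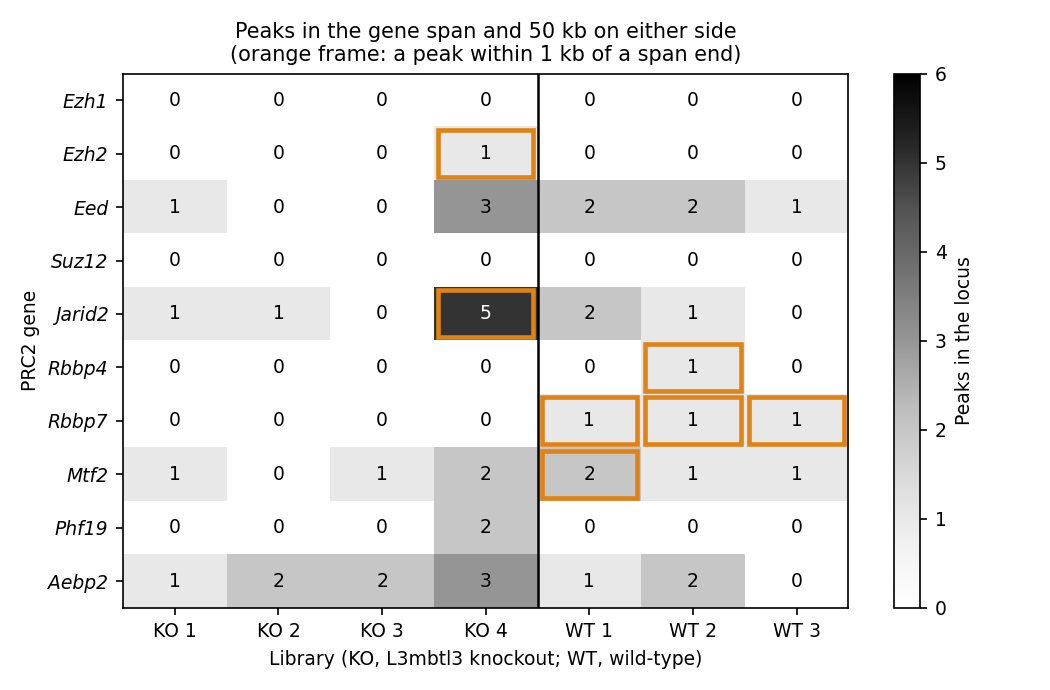
Number of peaks in the locus (the span with 50 kb added at each end) of each PRC2 gene (rows) in each library (columns). An orange frame marks a peak within 1 kb of a span end. The Rbbp7 row is framed in the 3 wild-type libraries and is 0 in all 4 knockout libraries, and Ezh1 and Suz12 are 0 throughout.

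The catalytic subunits had little called open chromatin. Ezh1 (chromosome 11, 101191115 to 101226463), the subunit that prevails in non-dividing cells, had no peak in its span or within 50 kb of it in any library. Its nearest peak was 50.4 kb from the span, in knockout library 4, so the 50 kb limit just leaves it out. Ezh2 (chromosome 6, 47530274 to 47595270), the form of dividing progenitors, had 0, 0, 0 and 1 peaks in knockout libraries and none in the wild-type libraries. That peak (47595098 to 47595297) had a −log10 q of 2.39 and covered bases −250 to −68 of the printed window, where 0 is the start base. In the other 6 libraries the nearest peak was 117 to 290 kb from the Ezh2 span.

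The core partners differed from each other. Suz12 (chromosome 11, 79993106 to 80034123), which encodes the scaffold of the complex, lay far from any peak, at 282 kb or more in every library and at up to 3146 kb in knockout library 2. Like Ezh1 it had no locus peak, a state shared by 30.8% of all genes and by 24.8% of the 2102 genes with a span of 30 to 45 kb. Eed (chromosome 7, 89954654 to 89980976), which binds the methylated histone tail, had no peak in its own span in any library. Its 50 kb flanks held 1, 0, 0 and 3 peaks in knockout libraries, against 2, 2 and 1 in wild-type libraries. The groups overlapped, with a difference of −0.67 peaks (knockout minus wild-type, exact permutation p = 0.514, adjusted over all genes p = 1).

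The most often called Eed region belongs by position to its neighbour. It lay at chromosome 7, 89941191 to 89941348, across the start of Hikeshi and 13306 bp from the nearer end of Eed. It was called in 2 of 4 knockout libraries (1 and 4) and in all 3 wild-type libraries (Fisher's exact p = 0.429, adjusted p = 1). Its −log10 q was 3.39 and 6.12 in the knockout libraries that called it, against 2.31, 2.40 and 3.31 in wild-type libraries 1 to 3. The value of 6.12 in knockout library 4 was the highest of all 45 peaks in the PRC2 loci. Overlapping peaks were merged into regions, called recurrent when found in 2 or more libraries. A further recurrent Eed region (89908087 to 89908220) was called in knockout library 4 and wild-type library 2, and the other 2 were each called in a single library.

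Rbbp7 (chromosome X, 162760372 to 162779090) was the only PRC2 gene whose calls did not overlap between the genotypes. It had 0 peaks in each of the 4 knockout libraries and 1 peak in each of the 3 wild-type libraries, within 1 kb of the start and nowhere else in the locus (Fisher's exact p = 0.0286, adjusted over all genes p = 1). Calls in every wild-type library and none of the knockouts were found for 0.0183% of all genes, which is 4 of 21887, and the reverse for 0.0274%. Among all 25623 merged regions this pattern was found for 34 (0.133%). None of the 21887 genes passed the adjustment, 10 had an unadjusted p under 0.05, and 0.0286 is the smallest p of this design. To pass at that p, most genes would have had to reach it, and only 23.6% had any end peak. No gene end could therefore pass, and failing the adjustment is no evidence of equal calling. The pattern was known from earlier results when the genes were chosen and is given as a description.

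The 3 Rbbp7 peaks overlapped at the start but differed in length, at 95, 260 and 85 bp. They ran over 162760307 to 162760401 in wild-type library 1, 162760135 to 162760394 in library 2 and 162760315 to 162760399 in library 3. All contained the 80 bp from 162760315 to 162760394, which is −57 to 22 in the printed window. With a peak required to cover at least 50% of the merged region, the difference in calling was −33.3 percentage points (Fisher's exact p = 0.429, adjusted p = 1), against −100 with any overlap. Their −log10 q was 2.27, 2.28 and 2.43, and their rank stood at percentiles 39.6, 32.3 and 60.2 of their lists, so none was a strong peak. At a −log10 q of at least 3 no library had an Rbbp7 peak, and with each list reduced to its 3366 strongest peaks the difference in calling was −33.3 percentage points, 1 of 3 wild-type libraries. The knockout lists included one longer than any wild-type list. Of the 668 genes with an end peak in all 3 wild-type libraries, 642 (96.1%) also had one in knockout library 4, and Rbbp7 was among the 4 with one in no knockout library. The 668 genes were not matched to Rbbp7 for peak strength, so this share is not the rate for peaks as weak as these. The part of list length in the Rbbp7 calls was not tested.

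The region next to Rbbp7 was called in both genotypes. At the start of Txlng, 50.3 kb from the Rbbp7 span (162829341 to 162829721), a region was called in knockout libraries 1 and 4 and in all 3 wild-type libraries. With flanks of 100 kb, which take in this region, the Rbbp7 locus difference was −1.5 peaks (knockout minus wild-type), against −1 with 50 kb. On chromosome X as a whole, the share of genes with an end peak was 6.55% ± 5.05 in knockout and 7.73% ± 1.92 in wild-type libraries (SD, n = 4 and 3, exact permutation p = 0.714). Chromosome X held 2.80% ± 0.377 of the peaks in knockout and 3.32% ± 0.461 in wild-type libraries (SD, n = 4 and 3, exact permutation p = 0.143). The Y chromosome held 14, 4, 3 and 11 peaks in knockout libraries, against 1, 15 and 7 in wild-type libraries. The part of embryo sex in the Rbbp7 calls was not tested.

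Rbbp4 (chromosome 4, 129307100 to 129335370), the close paralog of Rbbp7, had 0 locus peaks in each knockout library, against 0, 1 and 0 in wild-type libraries. The single peak, in wild-type library 2 (129335354 to 129335451), spanned the start from −81 to 16 with a −log10 q of 2.17. The span of Zbtb8os begins 81 bp beyond it on the other strand, so the peak counts for both genes of this divergent pair. An end peak in just 1 wild-type library was found for 2.57% of all genes.

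**Figure D2:**
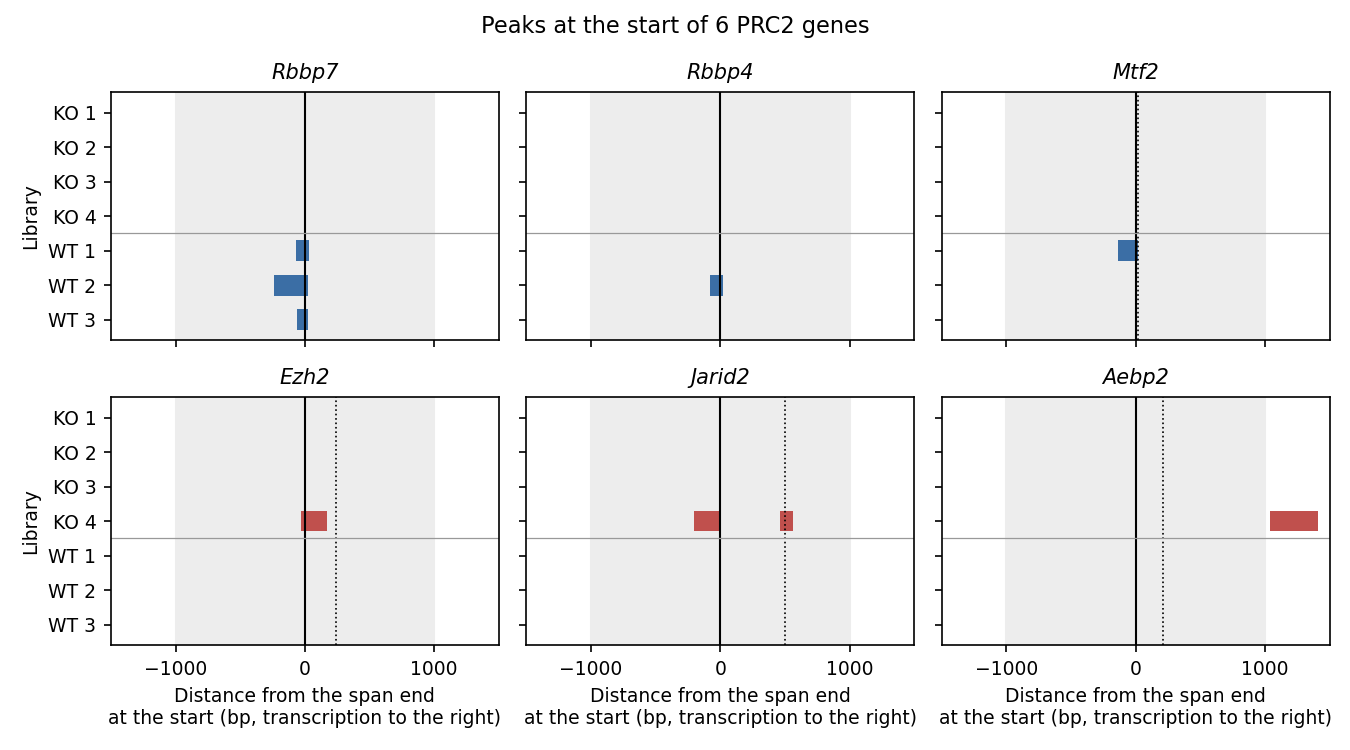
Peaks (bars) around the span end at the start of 6 PRC2 genes in each library, by distance in bp in the direction of transcription. The grey band is the 1 kb window, the solid line the span end and a dotted line an annotated transcription start. All knockout peaks (red) are from library 4, and each wild-type gene call (blue) is from 1 library except at Rbbp7; such patterns are found in 6.02% (library 4 alone) and 2.57% (1 wild-type library alone) of all genes.

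Among the accessory subunits, Mtf2 and Jarid2 had start peaks in 1 library each. Mtf2 (chromosome 5, 108065660 to 108109219), a Polycomb-like protein that binds unmethylated CG-rich DNA, was called at its start in wild-type library 1 (108065521 to 108065674, −log10 q 2.25). Jarid2 (chromosome 13, 44730774 to 44921643), a jumonji protein that recruits and stimulates PRC2, had a pair of start peaks in knockout library 4. These (44730571 to 44730780 and 44731239 to 44731336) overlapped the first and the second printed start, with −log10 q of 1.82 and 1.9. An end peak in knockout library 4 alone, the pattern of Ezh2 and Jarid2, was found for 6.02% of all genes.

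Across its 191 kb span and flanks Jarid2 held 1, 1, 0 and 5 peaks in knockout libraries, against 2, 1 and 0 in wild-type libraries (difference 0.75 peaks, exact permutation p = 0.886, adjusted p = 1). All lay inside the span or at the start. The most recurrent region (44891910 to 44892141), 161136 bp into the gene, was called in 3 of 4 knockout libraries (1, 2 and 4) and in 1 of 3 wild-type libraries (Fisher's exact p = 0.486, adjusted p = 1). The 4 peaks shared 144 bp. Without knockout library 4 the difference in locus peaks was −0.33.

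Aebp2 (chromosome 6, 140622454 to 140678472), a zinc-finger subunit that stabilises PRC2 on nucleosomes, had the most locus peaks of the 10 genes. It held 1, 2, 2 and 3 peaks in knockout libraries, against 1, 2 and 0 in wild-type libraries (difference 1 peak, exact permutation p = 0.286, adjusted p = 1). A region inside the gene (140667003 to 140667176), 44549 bp from the start, was called in knockout libraries 2, 3 and 4 and in no wild-type library (Fisher's exact p = 0.143, adjusted p = 1). At least 3 knockout and no wild-type calls were found for 1.13% of all 25623 regions. The −log10 q there was 1.69, 2.51 and 5.26 in knockout libraries 2, 3 and 4, and the 3 peaks shared 48 bp.

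Beyond the 3′ end of Aebp2, 11269 bp away, a region (140689741 to 140690212) was called in all 4 knockout libraries and in wild-type libraries 1 and 2 (Fisher's exact p = 0.429, adjusted p = 1). No base was common to its 6 peaks, since the peak of knockout library 3 ended before those of knockout library 2 began. With peaks required to cover at least 50% of it the difference in calling was −16.7 percentage points. Near the Aebp2 start, knockout library 4 had a peak 1037 bp from the span end (140623491 to 140623865), just outside the 1 kb window. The peak farthest from a span end that still fell inside the window was the second Jarid2 peak, at 465 bp.

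The remaining Mtf2 and Phf19 peaks lay mostly at other genes. Mtf2 held 1, 0, 1 and 2 locus peaks in knockout libraries, against 2, 1 and 1 in wild-type libraries (difference −0.33, exact permutation p = 0.657, adjusted p = 1). Its most recurrent region (108132595 to 108132728) lay across the start of Tmed5, beside the divergent start of Ccdc18. It was called in 3 of 4 knockout libraries (1, 3 and 4) and 2 of 3 wild-type libraries (1 and 2), with 90 bp common to the 5 peaks. A flank region at −29764 bp from the Mtf2 start was called in knockout library 4 and wild-type library 3. Phf19 (chromosome 2, 34893752 to 34914353), a Polycomb-like paralog of Mtf2, held 0, 0, 0 and 2 peaks in knockout libraries and none in wild-type libraries. One of these was 41 bp from the span end at the start of Psmd5, a proteasome assembly gene, and the other lay inside Phf19.

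**Figure D3:**
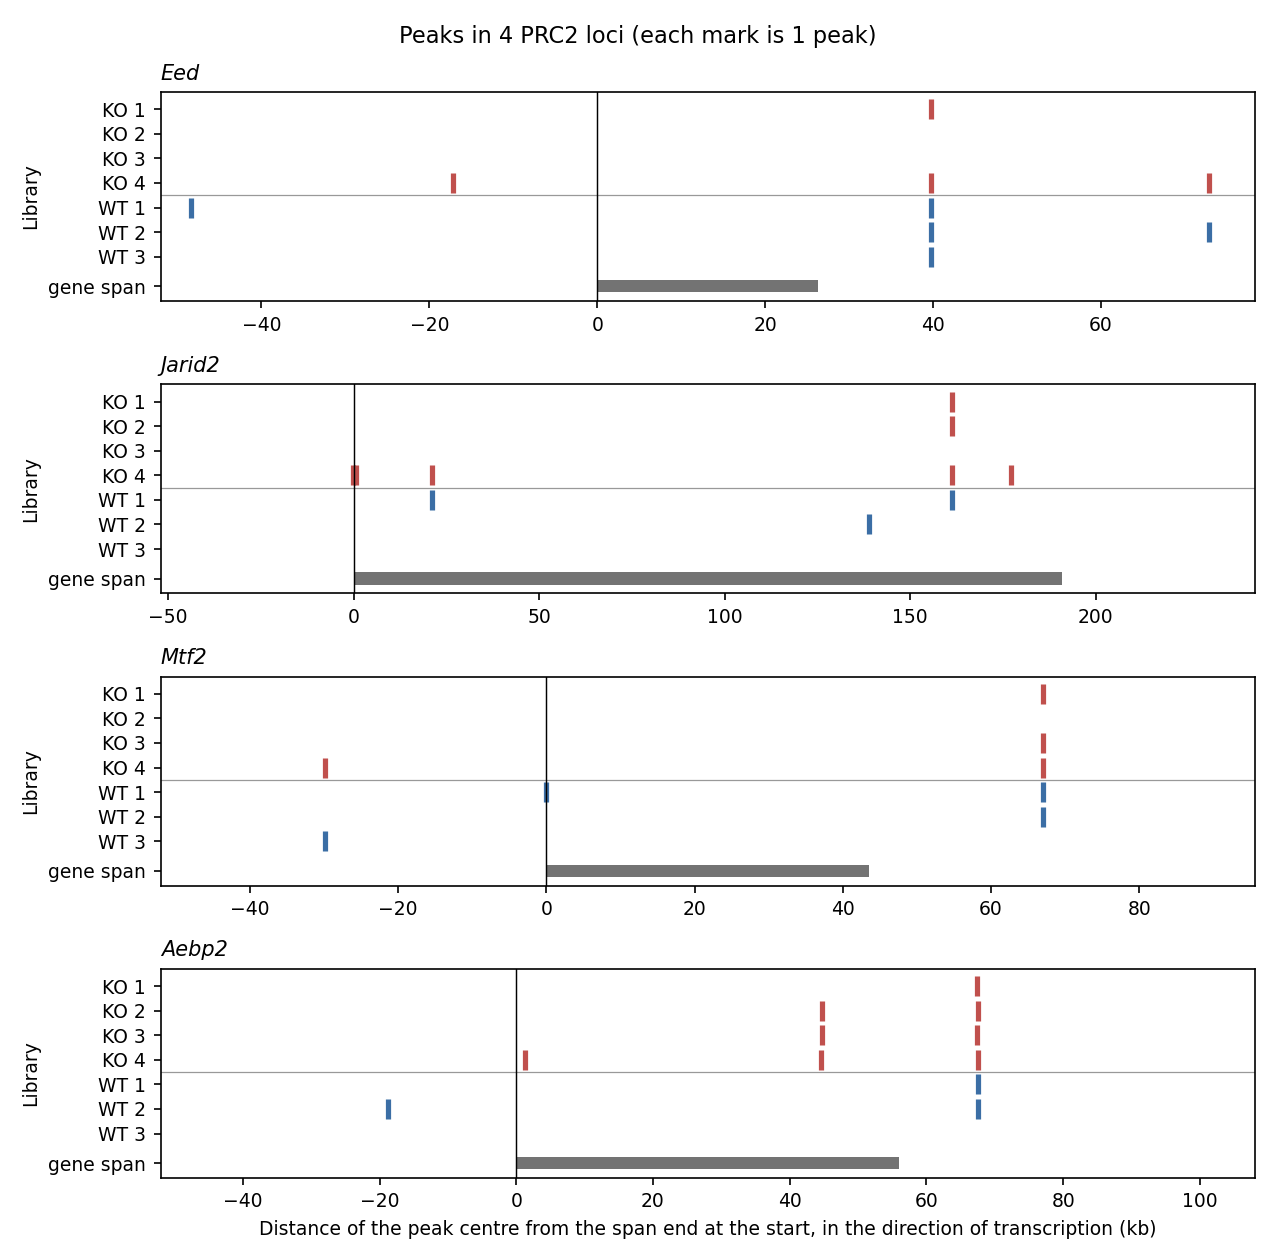
Position of each peak in the loci of Eed, Jarid2, Mtf2 and Aebp2, by distance of its centre from the start in kb, for 4 knockout (red) and 3 wild-type (blue) libraries. The recurrent regions at 39628 bp downstream of the Eed start and 66935 bp downstream of the Mtf2 start lie at neighbouring genes, and that inside Aebp2 has knockout marks only.

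In all, 45 peaks in the PRC2 loci merged into 22 regions, of which 9 were called in 2 or more libraries, against 51.6% of all regions. None was called in all 7 libraries, against 1296 of all 25623 regions, and the most widely called one reached 6. Of the 22 regions, 6 lay at the start of a PRC2 gene, 7 inside its span away from the ends and 9 in the flanks. Of the 13 single-library regions, 8 came from knockout library 4 (61.5%), which also held 52.2% of the single-library regions of the genome. No region, gene end or locus passed the Benjamini-Hochberg adjustment, where 62 of 25623 regions and 50 of 15153 loci had an unadjusted p under 0.05. For regions and gene ends too few were called for any to pass, even at the smallest p.

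Summed over the 10 loci, knockout libraries held 4, 3, 3 and 16 peaks and wild-type libraries 8, 8 and 3. The means were 6.50 ± 6.35 and 6.33 ± 2.89 peaks in knockout and wild-type libraries (SD, n = 4 and 3), a difference smaller than either spread; without knockout library 4 it was −3 peaks. Per 1000 peaks of the list the sums were 0.407, 0.422, 0.891 and 0.922 in knockout libraries, against 1.07, 0.702 and 0.465 in wild-type libraries. The genotypes overlapped on this scale as well. At least 1 library had a peak in 8 of the 10 loci, against 69.2% of all genes. The PRC2 loci held a median of 0.299 peaks per 100 kb and library and all protein-coding loci 0.209, with 6 of the 10 above that value.

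**Figure D4:**
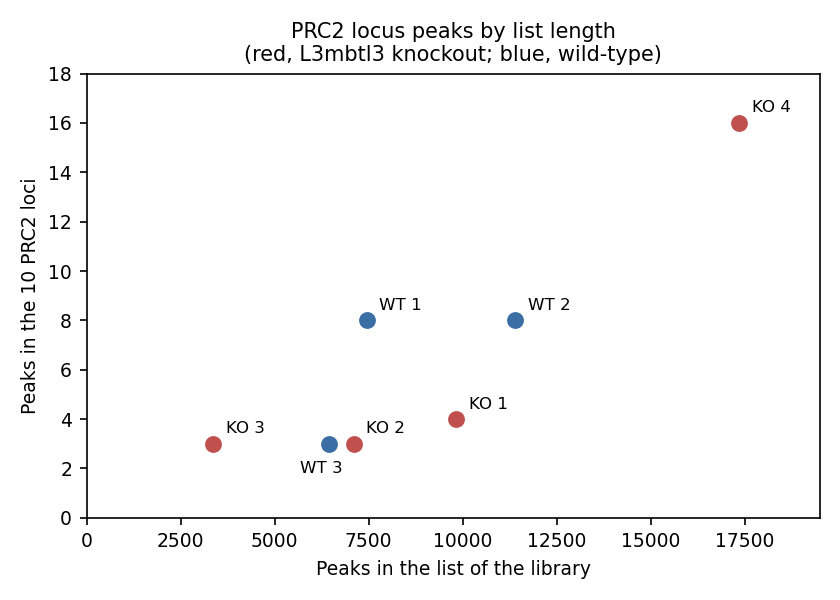
Peaks in the 10 PRC2 loci by length of the list, 1 point per library. Knockout library 4, with the longest list of 17362 peaks, stands at 16, and the other libraries of both genotypes lie between 3 and 8.

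Peaks at PRC2 starts ranked mostly below the middle of their lists, at percentiles 23.0 to 60.2 (median 35.5). They include all 3 peaks of Rbbp7 and the pair at the Jarid2 start in knockout library 4. The 8 of them had a median −log10 q of 2.26 and a range of 1.82 to 2.43, and none reached 3, a value reached by 42.9% of the 11746 peaks near gene ends in the 7 lists. The other 37 peaks of the loci had a median of 2.47 and reached 6.12, and 11 of them were at 3 or above. Fold enrichment was 3.99 to 4.54 at the starts and 3.54 to 6.64 elsewhere in the loci.

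**Figure D5:**
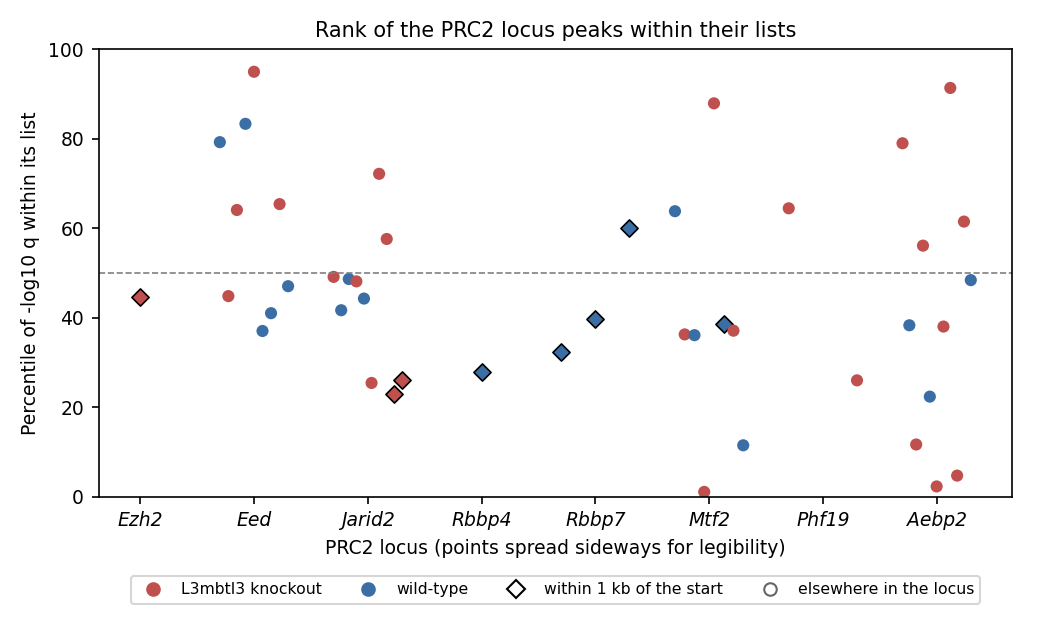
Percentile of each PRC2 locus peak by −log10 q within its own list (100 is the strongest peak), by locus. Diamonds are peaks within 1 kb of the start and circles the rest, and the dashed line is the middle of a list. Of the 8 start peaks, that of wild-type library 3 at Rbbp7 stands highest, at 60.2.

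The printed starts are CG-rich. GC content over the first window of each gene was 60.4% to 75.7% (median 65%) in the 5 genes with an end peak, 47.1% to 74.6% (median 58.2%) in the other 5, and 52.5% as the median of all 32851 promoter windows. CG dinucleotides numbered 23 to 37 (median 30) in genes with an end peak and 2 to 41 (median 21) in the others, against a median of 6 in all windows. Suz12 and Phf19, at 73.6% and 74.6% GC, had no end peak. Rbbp7 had the highest GC content of the 10, at 75.7%.

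Short motifs were searched on both strands. GGGCGG, the GC box, was in 6 of the 10 first windows and in 34.7% of all windows, and CCAAT in 6 and in 36.1%. Rbbp7 had CCAAT at −1 to 3 and its reverse at −55 to −51, and GGGCGG at 10 to 15, all within the bases shared by the 3 wild-type peaks. Rbbp4 had a reverse CCAAT at −26 to −22 under its peak. The motif or its reverse also lay under the peak in Ezh2 (−90 to −86). At Jarid2 it lay under the peaks of the first start (−179 to −175) and the second (16 to 20). Ezh2 also had matches outside its peak (−64 to −60 and −11 to −7), and the first Mtf2 window had none. The E2F form TTTGGCGC was in Ezh2 alone (at 3 to 10, outside the peak) and in 0.469% of all windows, and TTTCCCGC in Suz12 and Phf19 and in 1.01%. Phf19 also held AAGATGGCG, the YY1 motif (1.05% of windows). TATAAA (13.1%) was in no first window and stood at −31 to −26 of the second Jarid2 start, under the peak. CANNTG, the E-box, was in 4 of 10 and in 70.1% of windows, and neither CCGGAAG (ETS, 8.45%) nor the NRF1 motif (0.910%) was in any of the 10. The matches in the printed windows did not overlap each other, and a match of letters is no evidence of binding.

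Of 8 other genes of the pathway, further PRC2 subunits, regulators and H3K27 demethylases, 3 (37.5%) had an end peak in at least 1 library, against 23.6% of all genes. None passed the test in either direction, which no gene end could in these data. Lcorl, a gene of a family that also encodes PRC2-binding proteins, was called in all 4 knockout and all 3 wild-type libraries. Epop, an accessory subunit that links PRC2 to elongin, was called in knockout library 4 only. Uty, the Y-linked homologue of the demethylase gene Kdm6a, was called in 0 of 4 knockout and 2 of 3 wild-type libraries (2 and 3, Fisher's exact p = 0.143, adjusted p = 1). Embryo sex is not labelled, and its part in the Uty calls was not tested. Phf1, Lcor, Ezhip, Kdm6a and Kdm6b were not called at an end in any library.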

How the data were processed

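Per the labels' protocols the ATAC-seq kit was Nextera, and 1 broadPeak list per library was used. Per the submitters' processing notes the genome build is GRCm38 and the tools are MACS2, deepTools 3.3.0, SAMtools 1.9, Bowtie2 2.3.5.1, FastQC 0.11.8 and CASAVA 1.9. For settings and any read shift, nothing is given in the sources used here. Each peak has the authors' deposited fold enrichment, a ratio over background, with its −log10 p and −log10 q; the smallest −log10 q was 1.30 to 1.32 per list. The −log10 p was not used.

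Peaks that overlapped by at least 1 bp were merged into regions, called in each library with a peak there. Gene spans came from RefSeq (GRCm38.p6) and starts from its promoter table. No transcript models or genome sequence were used, so exons and introns are not told apart. Fisher's exact test served for end calls and regions, and locus peak numbers were compared by an exact permutation test over all 35 splits, both two-sided and adjusted by Benjamini-Hochberg over all genes or regions (Python 3.11.15, SciPy 1.17.1). Both were tested, before adjustment, on simulated data with full separation of calls or large shifts in peak number. The adjustment was not part of that test. The sum over the 10 genes gets no p. The genes and lists were chosen with earlier results of these data known, and all 10 genes are named. Alternatives changed windows, flanks, q, list length, merging and libraries.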

Additional observations from a re-analysis of the deposited data

Results flagged for a closer look

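Knockout library 4 stood apart from the other 3 knockout libraries in 4 values, in which its gap to the nearest of them exceeded the 95% critical value of Dixon's test for 4 samples. It had 2 PRC2 genes with an end peak, where the others had 0, and it called 18.01% of all genes at an end, against 8.76%, 6.12% and 3.55% in the others. So 2 of 10 genes is close to its share over all genes. It had 16 peaks in the 10 loci, where the others had 4, 3 and 3, and 1.18 locus peaks per gene over all genes, where the others had 0.505, 0.343 and 0.211. It had 1 peak at the Ezh2 locus and 2 at the Phf19 locus, where the other knockout libraries had 0. With 3 libraries at 0 any peak in the remaining one passes this test by construction, which holds for the end calls, Ezh2 and Phf19. The usual rate of about 1 group in 20 flagged by chance does not apply to such tied counts. List length, longest in library 4 at 17362 peaks, did not pass the test (gap over range 0.538), and its part in these values was not tested. Groups of 3, as in wild-type, were not examined in this way.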

How the results depend on the processing

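In all, 389 tests of single PRC2 genes and regions were made over the reported and alternative settings, and 0 had an adjusted p under 0.05. Tests of end calls and regions could not pass in these data. Locus tests without a single library have a smallest p of 0.0667 or 0.1, and those paired by replicate number 0.25. These could not pass either, even before adjustment, so the count of 0 is no evidence of equal calling. The difference in PRC2 genes called at an end (−1.17, knockout minus wild-type) was 0 at a −log10 q of at least 3 or 5, where no PRC2 gene was called, −0.33 with equal lists of 3366 peaks and −0.17 without the X-linked Rbbp7. Leaving out single libraries gave −1.67 (without knockout library 4) to −1. The count of 1 gene called in every wild-type and no knockout library became 0 at either q limit and with equal lists. By construction it was also 0 without Rbbp7. Leaving out a single library cannot lower this count, so its value of 1 there says nothing about stability. The reverse count stayed at 0 without single libraries. Recurrent regions numbered 2 and 0 at the q limits and 3 with equal lists, against 9, and 6 to 9 without single libraries. The locus sum (0.17) ran from −3 to 1.33 and the recurrent regions per library from −1.25 to 0.33 without single libraries, so neither has a stable sign. Fewer peaks enter under the q limits and equal lists. The replicate block uses pairs 1 to 3 only and so also drops knockout library 4. It gave −1.67 genes, −3 locus peaks and −1.33 recurrent regions per library. Dropping that library without the block already gave −1.67, −3 and −0.33. With the block the smallest possible p of a single test is 0.25, so no call could appear and none did. Deviations of same-numbered libraries from their genotype means correlated at 0.0199, 0.0258 and 0.0587 over 13227 regions, so the numbers were not taken to pair them.

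Values that changed sign, none of them called, were the Eed locus (0.083 and 0.25 peaks at the q limits) and its Hikeshi region (16.7 and 25 percentage points), the Jarid2 locus (−0.33 with the block, as without knockout library 4), the Mtf2 locus (0.50 with equal lists), its Tmed5 region (−8.33 at q of 3) and the flank region of Aebp2 (−16.7 at 50% cover). Without single libraries the Jarid2 locus ran from −0.33 to 1.33 peaks, the first Eed region, the Jarid2 region at 21128 bp and the Mtf2 upstream region each from −33.3 to 25 points and the Tmed5 region from −25 to 33.3. The cause was not tested. With unknown depth no interval can be set on a single missing peak.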

Other observations

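Rbbp4 and Rbbp7 are shared with other chromatin complexes, the NuRD and Sin3 deacetylase complexes, the CAF-1 histone chaperone and the NURF remodeller. Of 20 further genes of these complexes, 9 (45%) had an end peak in at least 1 library, against 23.6% of all protein-coding genes. They were called at 4, 5, 1 and 9 genes in knockout libraries 1 to 4, against 3, 5 and 1 in wild-type libraries 1 to 3. As shares these are 20%, 25%, 5% and 45% in knockout libraries, against 15%, 25% and 5% in wild-type libraries. Over all genes the shares were 8.76%, 6.12%, 3.55% and 18.01% in knockout libraries, against 7.41%, 11.1% and 6.63% in wild-type libraries. None passed the test, which no gene end could in these data. Mbd3, the methyl-CpG-binding family member of NuRD, was called in 4 of 4 knockout and 2 of 3 wild-type libraries, and Gatad2a and Sap30 in 3 of 4 and 2 of 3. Hdac2 was called in 2 of 4 knockout and 1 of 3 wild-type libraries, Mta2 and Gatad2b in 1 of 4 and 1 of 3, Chaf1a and Smarca5 in 2 of 4 and 0 of 3, and Chaf1b in 1 of 4 and 0 of 3. All 9 were called in knockout library 4, the longest list.

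A region 58.6 kb from the Eed span, beyond the 50 kb flank and named after its values were seen, was called in all 4 knockout and all 3 wild-type libraries (chromosome 7, 90039555 to 90039776), with a −log10 q between 1.77 and 3.79. Such calling in all 7 libraries was found for 1296 of all 25623 regions.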
